A study of Mus musculus with 24 samples.

Results

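The genes described here are 10 ligands through which a tumour cell is read by T cells, macrophages and natural killer (NK) cells: Cd274, Pdcd1lg2, Cd80, Cd86, Cd276, Cd47, Lgals9, Pvr, Nectin2 and Ulbp1. They were taken by symbol from the 28328 genes of the annotated table, and each gene's level is the sum of its transcripts in TPM, a length-corrected share of all transcripts in a library. Of the 10 genes, 8 passed a filter on low levels (1 TPM or more in 3 or more libraries) and were tested among 12581 genes. Pdcd1lg2 and Cd86 did not, and are given as levels.

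RNA was measured in LLC1, a cell line of the mouse Lewis lung carcinoma, by stranded poly(A) RNA sequencing. Combination cells received cisplatin at 2.5 µM, pemetrexed at 2.5 µM and trametinib at 10 nM, trametinib cells trametinib at 10 nM, chemotherapy cells cisplatin at 2.5 µM with pemetrexed at 2.5 µM, and untreated cells 0.1% DMSO alone; the labels name no DMSO for the treated cells. Each was sampled at 6 h and 24 h in 3 libraries, 24 in 8 groups, and the study compared the treatments with each other and with untreated cells. Cisplatin damages DNA by crosslinks, pemetrexed starves cells of nucleotides as an antifolate, and trametinib blocks the MEK step of the ERK growth signal. Nothing in the labels states that triplicates were grown separately, and p-values may therefore reflect technical spread alone. The sequencing depth behind a TPM value is unknown. Keratin genes of an epithelial tumour were present (Krt8 at 69.9 to 209 TPM and Krt18 at 121 to 361 TPM), whereas the epithelial adhesion genes Epcam and Cdh1 stayed at or under 0.154 TPM in all 24 libraries and the mesenchymal filament gene Vim reached 3296 to 4478 TPM. The leukocyte gene Ptprc was at most 0.0121 TPM, and Adgre1, C1qa and Cd3e, which define macrophages and T cells, were listed at 0 in all 24. Other genes of the same marker lists were present, with Cd68 at 3.68 to 39.3 TPM and Itgax at 1.71 to 2.73 TPM. Lyz2, Coro1a and Cd74 reached 3.97, 4.10 and 1.36 TPM.

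T cells need a costimulatory signal beside antigen. CD80 and CD86 (Cd80, Cd86) give it through CD28 and withhold it through CTLA-4, while PD-L1 and PD-L2 (Cd274, Pdcd1lg2) engage the inhibitory receptor PD-1. CD47 tells macrophages not to engulf a cell, through SIRPα. CD155 (Pvr) and nectin-2 (Nectin2) bind the activating receptor DNAM-1 and the inhibitory receptor TIGIT on NK and T cells, and stress-induced ligands such as that of Ulbp1 switch on the activating NK receptor NKG2D.

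The combination at 24 h raised 5 of the 8 tested ligand genes and lowered 2, Pvr and Nectin2, relative to untreated cells. Trametinib alone at 24 h raised 1, Lgals9, and lowered 4, Cd274, Cd80, Nectin2 and Pvr. Chemotherapy alone at 24 h raised 6 and lowered none. A gene was called when its adjusted p was under 0.05 (limma on log2(TPM + 1), Benjamini-Hochberg over all genes tested, two-sided), and "rose" and "fell" are used only of called genes. Called genes were 63.4% of all genes tested in the combination, 58.7% in trametinib and 59.2% in chemotherapy at 24 h, so a call by itself was common in these cells and sizes and directions carry the description.

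At 6 h the combination raised 5 ligand genes and lowered 1 (58.4% of all genes were called), trametinib raised 3 and lowered 2 (54.8%), and chemotherapy raised 4 and lowered none (24.8%). The median log2 difference of the 8 genes at 24 h was 0.38 in the combination, against 0.10 over all genes, -0.17 in trametinib, against 0.04, and 0.44 in chemotherapy, against 0.06. Cd80 enters these counts although it reached 1 TPM in only 7 libraries, those of chemotherapy and the combination at 24 h and 1 of the combination at 6 h, so its part in the counts and medians is set in part by the filter. At 6 h the median of all genes itself lay 0.11 above untreated cells in the combination and 0.10 in trametinib, and 0.13 above chemotherapy in the combination.

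**Figure D1:**
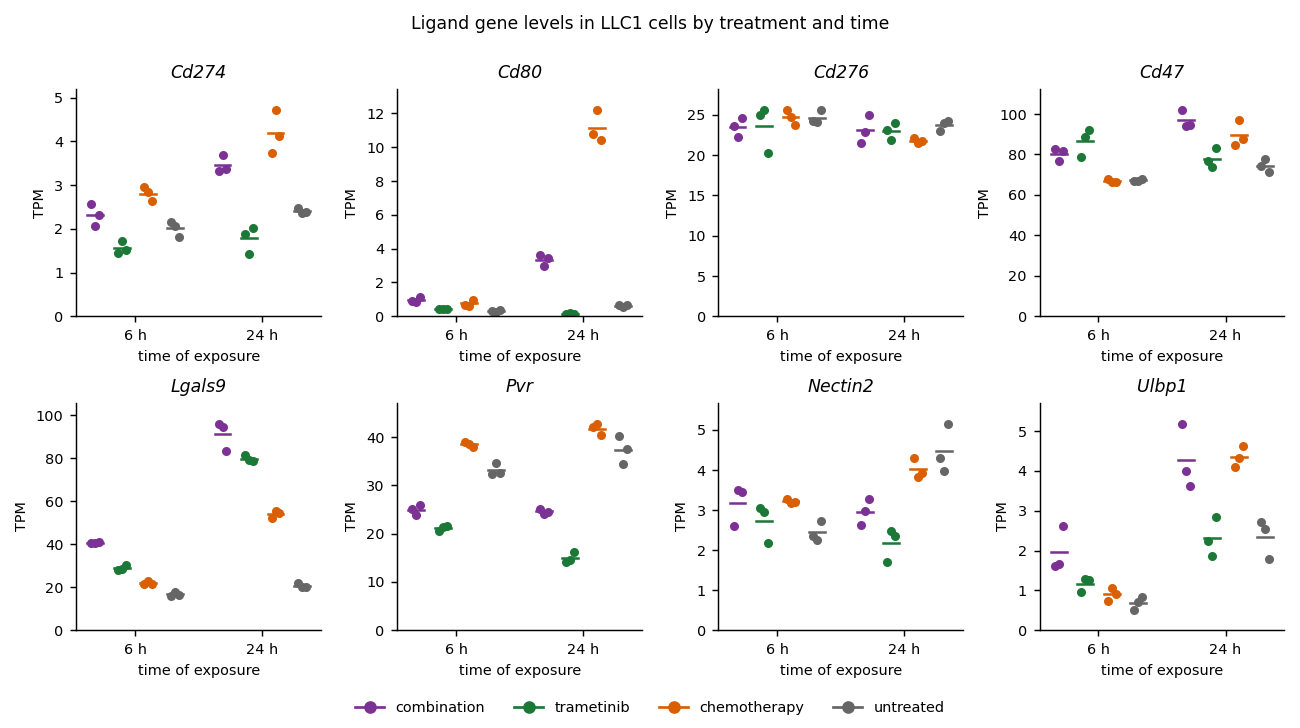
TPM of the 8 tested ligand genes in each library (points) with the group mean (line), at 6 h and 24 h, each time with combination, trametinib, chemotherapy and untreated cells from left to right. Lgals9 is highest in the combination at 24 h, Cd80 in chemotherapy at 24 h, and Pvr is lowest in trametinib at 24 h.

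**Figure D2:**
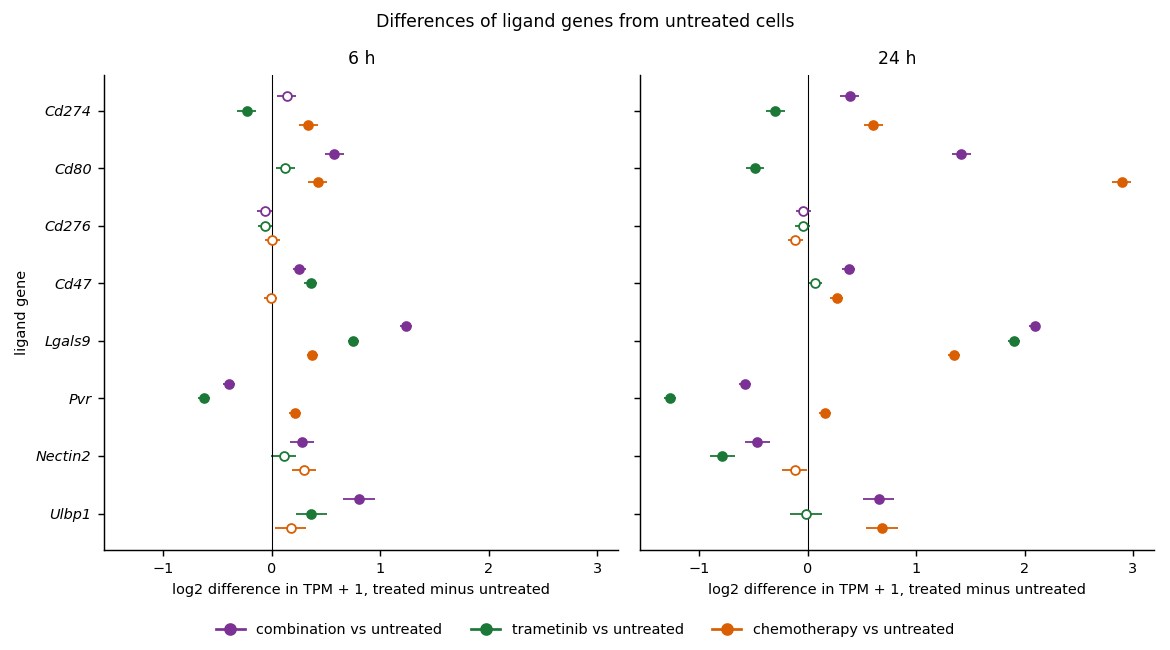
Log2 differences (TPM + 1) of each treatment from untreated cells of the same time, with bars of 1 standard error; filled points passed an adjusted p of 0.05 and open points did not. At 24 h Cd80 in chemotherapy (2.90) and Lgals9 in the combination (2.09) lie farthest to the right, and Pvr in trametinib (-1.27) farthest to the left.

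The RNA of PD-L1 rose with chemotherapy and fell with trametinib alone. Cd274 (chr19:29367455-29388095, GRCm38, plus strand) was at 2.56, 2.07 and 2.31 TPM in combination cells, 1.44, 1.73 and 1.53 in trametinib cells, 2.95, 2.83 and 2.64 in chemotherapy cells and 2.15, 2.07 and 1.82 in untreated cells at 6 h. At 24 h it was at 3.31, 3.68 and 3.37 TPM in combination cells, 1.89, 1.43 and 2.02 in trametinib cells, 3.73, 4.72 and 4.12 in chemotherapy cells and 2.47, 2.37 and 2.38 in untreated cells. The 4 groups at 24 h did not overlap, with chemotherapy highest, then the combination, untreated cells and trametinib; at 6 h only combination and untreated libraries overlapped.

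Cd274 rose by 0.60 ± 0.09 (log2 difference ± SE) in chemotherapy at 24 h, a 1.74-fold difference of the mean TPM (adjusted p = 7.35e-06), and by 0.34 ± 0.09 at 6 h (adjusted p = 0.00768). It rose by 0.39 ± 0.09 in the combination at 24 h (adjusted p = 0.0007), whereas the 0.14 ± 0.09 at 6 h did not pass (adjusted p = 0.195). In trametinib the log2 difference was -0.23 at 6 h (adjusted p = 0.0302) and -0.30 at 24 h (adjusted p = 0.00627). The call at 6 h was lost without untreated replicate 1 or 2 or trametinib replicate 1 or 3 (adjusted p 0.0726 to 0.105), and the call at 24 h without trametinib replicate 2 (-0.20, adjusted p = 0.0532). PD-L2, the other ligand of PD-1, is encoded 22823 bases downstream of Cd274, and Pdcd1lg2 (chr19:29410919-29471161) was listed at 0 TPM in all 24 libraries.

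The promoters of Cd274, Lgals9 and Cd80 are shown because these genes had the PD-1 ligand signal and the largest rises. The windows run from 250 bases before to 50 bases from the annotated start (RefSeq, GRCm38.p6); 8 of the 10 genes had one, and Cd86 and Pvr did not. Capitals mark, on either strand, the core of the interferon-stimulated response element (ISRE, GAAANNGAA) in Cd274 and Lgals9, and an AP-1 element (TGANTCA) in Cd80. The gene strand is plus for Cd274 (chr19:29367188-29367487) and Cd80 (chr16:38458683-38458982) and minus for Lgals9 (chr11:78984875-78985174).
Cd274: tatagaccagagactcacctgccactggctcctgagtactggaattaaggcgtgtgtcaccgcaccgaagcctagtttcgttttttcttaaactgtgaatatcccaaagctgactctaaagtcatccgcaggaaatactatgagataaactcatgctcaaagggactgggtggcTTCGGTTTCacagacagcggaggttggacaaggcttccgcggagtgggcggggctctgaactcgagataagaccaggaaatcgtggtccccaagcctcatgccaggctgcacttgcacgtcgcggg
Lgals9: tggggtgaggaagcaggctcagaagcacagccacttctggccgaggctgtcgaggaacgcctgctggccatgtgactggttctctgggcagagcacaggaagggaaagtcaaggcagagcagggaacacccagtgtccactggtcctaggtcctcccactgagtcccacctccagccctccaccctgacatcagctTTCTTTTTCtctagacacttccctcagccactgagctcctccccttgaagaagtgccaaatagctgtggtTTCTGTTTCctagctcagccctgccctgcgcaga
Cd80: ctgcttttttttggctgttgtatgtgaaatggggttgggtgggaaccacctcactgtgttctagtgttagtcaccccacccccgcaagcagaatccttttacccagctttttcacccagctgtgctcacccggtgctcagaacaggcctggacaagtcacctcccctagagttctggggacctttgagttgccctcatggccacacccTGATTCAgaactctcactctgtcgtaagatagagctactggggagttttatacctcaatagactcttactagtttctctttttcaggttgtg

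The ISRE core lay 76 bases before the start of Cd274, as TTCGGTTTC, and occurred in Lgals9 54 bases before the start, as TTCTTTTTC, and again just after the start, as TTCTGTTTC. The AP-1 letters TGATTCA lay 42 bases before the RefSeq start of Cd80. That window lies inside the span of the annotated gene (chr16:38455561-38496335). Whether its start is that of the quantified Cd80 transcript was not checked. Of the 32851 RefSeq promoters searched, 8.56% held the ISRE core and 7.81% the AP-1 letters. Repeated windows, and the promoters of a chromosome that holds none of the ligand genes, were left out of that search. Of the other ligand genes searched with the same motifs, Cd47 and Nectin2 held the ETS letters CCGGAAG (8.86% of promoters), and Cd276 and Ulbp1 held a CCAAT box (37.4%). No window held TTCNNNGAA (8.30%) or GGGANTTTC (1.11%), and Pdcd1lg2 held none of the 6 motifs. These matches describe letters and say nothing of binding.

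Cd80, the costimulatory ligand, had the largest change of the ligand genes, in chemotherapy at 24 h. At 24 h Cd80 (chr16:38455561-38496335) was at 3.6, 2.99 and 3.47 TPM in combination cells, 0.131, 0.225 and 0.136 in trametinib cells, 10.8, 12.2 and 10.4 in chemotherapy cells and 0.678, 0.563 and 0.651 in untreated cells. No groups overlapped at 24 h: every chemotherapy library was above every combination library, which were above every untreated library, and trametinib libraries were lowest. At 6 h it was at 0.881, 0.864 and 1.13 TPM in combination cells, 0.442, 0.423 and 0.425 in trametinib cells, 0.672, 0.639 and 0.992 in chemotherapy cells and 0.323, 0.243 and 0.376 in untreated cells, with combination and chemotherapy libraries overlapping.

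Cd80 passed the filter only through chemotherapy and combination libraries. The p-values of Cd80 are therefore not independent of the filter, and the levels carry the description. In chemotherapy at 24 h Cd80 was 17.7-fold above untreated cells in mean TPM, a log2 difference of 2.90 ± 0.09 (adjusted p = 2.58e-15). The combination was 5.32-fold above untreated cells (1.41 ± 0.09, adjusted p = 4.05e-11) and 0.301 times chemotherapy alone (-1.48 ± 0.09, adjusted p = 5.15e-11). Trametinib alone was at 0.260 times untreated cells (-0.49 ± 0.09, adjusted p = 7.93e-05). On log2(TPM + 1) these differences understate the ratio of the means for a gene this low in untreated cells. The coding transcript Cd80-201 was the only Cd80 transcript quantified in the deposited data, so its share was fixed.

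Of the marker genes of macrophages and dendritic cells, Cd68 had the same order of group means at 24 h as Cd80, and the others did not share it. The summed level of the 9 markers was 20.3 to 21.4 TPM in combination cells, 7.40 to 9.07 in trametinib cells, 36.9 to 43.2 in chemotherapy cells and 13.4 to 17.8 in untreated cells at 24 h. Of the 9 markers, 4 reached 1 TPM in any library and 2, Adgre1 and C1qa, were at 0 in all 24; most of the sum was Cd68, a lysosomal protein gene, with means of 14.0, 4.68, 37.0 and 12.7 TPM in combination, trametinib, chemotherapy and untreated cells at 24 h. Itgax, an integrin gene, was lowest in chemotherapy cells, at 2.02 to 2.30 TPM in combination cells, 1.93 to 2.22 in trametinib cells, 1.71 to 1.86 in chemotherapy cells and 2.50 to 2.58 in untreated cells. Lyz2, a lysozyme gene, was highest in combination cells, with means of 3.57, 1.44, 1.94 and 0.390 TPM in combination, trametinib, chemotherapy and untreated cells. The 4 leukocyte markers summed to 3.65 to 4.66 TPM in combination cells, 1.69 to 2.24 in trametinib cells, 2.62 to 2.77 in chemotherapy cells and 0.581 to 0.978 in untreated cells at 24 h, of which Coro1a, an actin regulator, was the only one to reach 1 TPM. The 6 T and NK cell markers never summed to more than 0.705 TPM. The part of these markers in the Cd80 result was not tested. In bulk RNA a change in the number of cells that express a gene and a change in RNA per cell cannot be told apart.

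The partner gene of Cd80, Cd86 (chr16:36603869-36666081, minus strand), stayed between 0.0423 and 0.409 TPM. All of it was assigned to Cd86-203, a transcript annotated without a coding frame, and the coding transcript Cd86-201 was at 0 in all 24 libraries. Cd276 (chr9:58524298-58555437, minus strand), which encodes the B7 family member B7-H3, was at 20.3 to 25.6 TPM throughout, and limma called it in none of the 18 comparisons, with no unadjusted p under 0.05. Its largest difference from untreated cells was -0.12 ± 0.07 in chemotherapy at 24 h (adjusted p = 0.16), where chemotherapy libraries at 22.2, 21.5 and 21.7 TPM all lay under untreated libraries at 23, 23.9 and 24.3 TPM. Rescaling each library by its median ratio to the other libraries made that difference -0.21 and called it (adjusted p = 0.0128).

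Cd47 had the highest mean of the ligand genes over the 24 libraries (80.0 TPM), and rose early with trametinib and late with chemotherapy. At 6 h Cd47 (chr16:49800533-49915010) was at 82.5, 76.6 and 81.9 TPM in combination cells, 79.0, 88.7 and 92.2 in trametinib cells, 67.7, 66.3 and 66.2 in chemotherapy cells and 66.7, 67.0 and 68.1 in untreated cells. At 24 h it was at 102.1, 94.3 and 94.4 TPM in combination cells, 76.8, 73.8 and 83.4 in trametinib cells, 84.8, 97.0 and 87.8 in chemotherapy cells and 74.1, 77.8 and 71.3 in untreated cells. Trametinib libraries stood clear of untreated libraries at 6 h and overlapped them at 24 h, and chemotherapy libraries did the reverse.

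The log2 difference of Cd47 from untreated cells was 0.36 ± 0.06 with trametinib at 6 h (adjusted p = 4.78e-05) and 0.07 ± 0.06 at 24 h (adjusted p = 0.362), and the change of the trametinib effect between times was -0.29 ± 0.09 (adjusted p = 0.0106). With chemotherapy it was -0.01 ± 0.06 at 6 h (adjusted p = 0.919) and 0.27 ± 0.06 at 24 h (adjusted p = 0.000792), a change of 0.28 ± 0.09 between times (adjusted p = 0.012). That change lost its call after rescaling (0.16, adjusted p = 0.101). The combination was called at both times, at 0.25 ± 0.06 and 0.38 ± 0.06 (adjusted p = 0.0013 and 1.87e-05).

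The 2 transcripts of Cd47 in the table moved apart in chemotherapy. These were Cd47-201, of 5250 bases with a coding length of 972 bases, and Cd47-202, of 1175 bases with a coding length of 813 bases. Cd47-202 was at 80.2, 72.4 and 74.8 TPM in combination cells, 52.6, 50.4 and 53.4 in trametinib cells, 71.9, 84.1 and 73.9 in chemotherapy cells and 51.0, 54.5 and 50.3 in untreated cells at 24 h. Cd47-201 in the same cells was at 21.9, 21.9 and 19.6 TPM in combination cells, 24.2, 23.4 and 30.0 in trametinib cells, 13.0, 12.8 and 13.8 in chemotherapy cells and 23.1, 23.3 and 21 in untreated cells.

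In chemotherapy cells Cd47-202 was thus above, and Cd47-201 below, every untreated library. Cd47-201 made up 14.8% ± 1.34 of Cd47 TPM in chemotherapy cells at 24 h, against 30.2% ± 0.857 in untreated cells (SD, n = 3 each), and 22.1% ± 1.38 against 22.9% ± 0.615 at 6 h. The division between transcripts that share sequence is an estimate by the quantification tool, and transcripts were not tested. GENCODE M21 also lists Cd47 transcripts without values in the deposited data, among them Cd47-203 and Cd47-206. How reads from those were assigned is unknown, so the shares need not be a switch between Cd47-201 and Cd47-202.

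**Figure D3:**
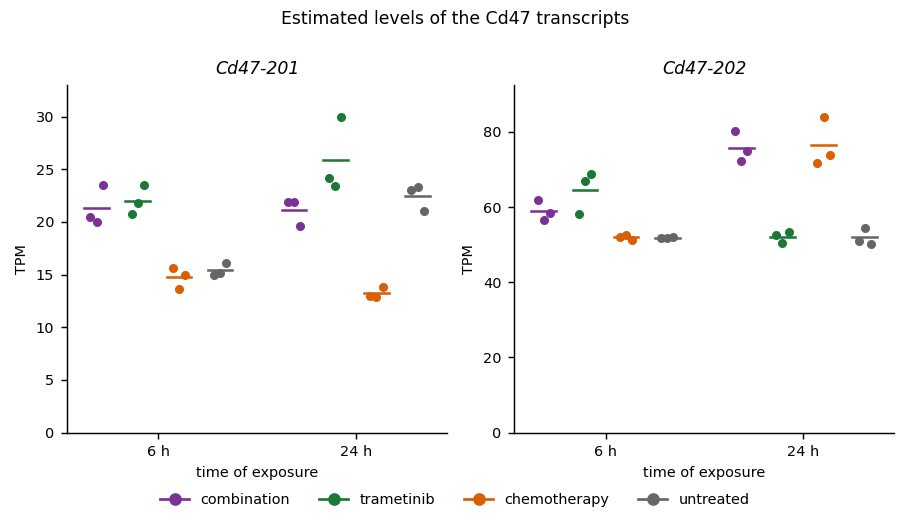
TPM of the 2 Cd47 transcripts that were quantified, in each library (points) with the group mean (line). Groups are in the order combination, trametinib, chemotherapy and untreated at each time. In chemotherapy cells at 24 h Cd47-201 lies at 12.8 to 13.8 TPM, under all untreated libraries, and Cd47-202 at 71.9 to 84.1 TPM, above them.

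Lgals9, which encodes galectin-9, a ligand of TIM-3, an inhibitory receptor of T cells, rose in every treatment at both times. At 6 h Lgals9 (chr11:78962974-78984946, minus strand) was at 40.7, 40.4 and 40.8 TPM in combination cells, 28, 28.3 and 30.1 in trametinib cells, 21.4, 22.9 and 21.5 in chemotherapy cells and 16.1, 17.6 and 16.4 in untreated cells. At 24 h it was at 96.0, 94.3 and 83.4 TPM in combination cells, 81.4, 79.3 and 78.6 in trametinib cells, 52.1, 55.3 and 54.4 in chemotherapy cells and 21.8, 20.2 and 19.8 in untreated cells. The order combination, trametinib, chemotherapy, untreated held at both times with no overlap between libraries.

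The rise of Lgals9 at 24 h was 4.43-fold in the combination (log2 difference 2.09 ± 0.05, adjusted p = 2.79e-16), 3.87-fold in trametinib (1.90 ± 0.05, adjusted p = 5.37e-16) and 2.62-fold in chemotherapy (1.35 ± 0.05, adjusted p = 1.06e-13). At 6 h it was 2.44-fold, 1.72-fold and 1.31-fold in the same order. The combination and trametinib at 24 h were neighbours in level and differed by 0.19 ± 0.05 (adjusted p = 0.00576), a call lost after rescaling (0.10, adjusted p = 0.146). Nearly all of the level came from Lgals9-202, at 15.9 to 95.3 TPM, while Lgals9-201 and Lgals9-203 reached at most 3.04 and 1.06 TPM.

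Pvr, the gene of CD155, fell against untreated cells in trametinib and in the combination, where Lgals9 rose. At 6 h Pvr (chr7:19903578-19921160, minus strand) was at 25.1, 23.9 and 26.0 TPM in combination cells, 20.5, 21.4 and 21.5 in trametinib cells, 39.0, 38.6 and 38.0 in chemotherapy cells and 32.4, 34.6 and 32.5 in untreated cells. At 24 h it was at 25.2, 24.1 and 24.6 TPM in combination cells, 14.1, 14.4 and 16.1 in trametinib cells, 42.2, 42.8 and 40.4 in chemotherapy cells and 40.3, 34.5 and 37.5 in untreated cells. The groups did not overlap at either time, with trametinib lowest and the combination between trametinib and untreated cells.

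Trametinib lowered Pvr by a log2 difference of -1.27 ± 0.06 at 24 h, to 0.398 times untreated cells (adjusted p = 3.3e-13), and by -0.63 ± 0.06 at 6 h (adjusted p = 1.41e-08). The combination lowered it by -0.58 ± 0.06 at 24 h (adjusted p = 1.98e-08) and by -0.39 ± 0.06 at 6 h (adjusted p = 4.45e-06). Chemotherapy alone raised it by 0.21 ± 0.06 at 6 h (adjusted p = 0.00847) and 0.16 ± 0.06 at 24 h (adjusted p = 0.0195). The call at 24 h was lost after rescaling (0.07, adjusted p = 0.284), and also without untreated replicate 2 (0.10, adjusted p = 0.137) or chemotherapy replicate 1 or 2.

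Nectin2, at lower levels, fell with trametinib at 24 h, and its trametinib effect changed by -0.90 ± 0.16 between the times (adjusted p = 0.000222). That change includes a rise in untreated cells, from a mean of 2.44 TPM at 6 h to 4.48 TPM at 24 h. At 24 h Nectin2 (chr7:19716644-19750483, minus strand) was at 2.63, 2.97 and 3.28 TPM in combination cells, 1.70, 2.47 and 2.35 in trametinib cells, 4.30, 3.83 and 3.94 in chemotherapy cells and 4.30, 3.98 and 5.16 in untreated cells. Combination and trametinib libraries were below every untreated library and did not overlap each other, while chemotherapy overlapped untreated cells. The log2 difference from untreated cells was -0.47 ± 0.12 in the combination (adjusted p = 0.00154), -0.79 ± 0.12 in trametinib (adjusted p = 7.84e-06) and -0.12 ± 0.12 in chemotherapy (adjusted p = 0.387).

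At 6 h Nectin2 was at 2.60, 3.5 and 3.45 TPM in combination cells, 3.05, 2.95 and 2.18 in trametinib cells, 3.27, 3.17 and 3.21 in chemotherapy cells and 2.34, 2.25 and 2.72 in untreated cells. Combination and trametinib libraries overlapped untreated libraries. The combination passed the threshold at 0.28 ± 0.12 (adjusted p = 0.0449), but lost it without untreated replicate 1 or 2 or combination replicate 2 or 3 (0.22 to 0.26), and quantile normalization turned its direction (-0.01, adjusted p = 0.957). Chemotherapy libraries stood above untreated libraries without a call (0.30 ± 0.12, adjusted p = 0.0668).

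Ulbp1, a ligand gene for NKG2D, rose with the combination at both times and with chemotherapy at 24 h. At 6 h Ulbp1 (chr10:7440362-7473638, minus strand) was at 1.62, 1.67 and 2.61 TPM in combination cells, 0.967, 1.29 and 1.25 in trametinib cells, 0.743, 1.05 and 0.905 in chemotherapy cells and 0.511, 0.709 and 0.835 in untreated cells. At 24 h it was at 5.19, 4.0 and 3.63 TPM in combination cells, 2.24, 1.85 and 2.85 in trametinib cells, 4.10, 4.31 and 4.64 in chemotherapy cells and 2.72, 2.55 and 1.78 in untreated cells. At 24 h the groups fell into an upper pair, combination and chemotherapy, and a lower pair, trametinib and untreated, with overlap within each pair and none between them.

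Ulbp1 rose by 0.80 ± 0.14 in the combination at 6 h (2.87-fold, adjusted p = 8.02e-05) and by 0.66 ± 0.14 at 24 h (1.82-fold, adjusted p = 0.000562). In chemotherapy it rose by 0.69 ± 0.14 at 24 h (1.85-fold, adjusted p = 0.000432), with 0.17 ± 0.14 at 6 h (adjusted p = 0.423). In trametinib it was 0.37 ± 0.14 at 6 h (adjusted p = 0.0391), a call lost without untreated replicate 1 or 2 or trametinib replicate 2 or 3 (adjusted p 0.0672 to 0.149), and -0.02 ± 0.14 at 24 h (adjusted p = 0.935).

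Levels also differed between the times in untreated cells. Untreated cells at 24 h against untreated cells at 6 h had 6 of the 8 ligand genes higher and none lower, where 60.8% of all genes were called. Ulbp1 was 3.43-fold higher (0.98 ± 0.14, adjusted p = 8.28e-06), Nectin2 1.84-fold (0.67 ± 0.12, adjusted p = 5.19e-05) and Cd80 2.01-fold (0.31 ± 0.09, adjusted p = 0.00428). Lgals9, Pvr and Cd47 rose by 0.29, 0.17 and 0.14; that of Pvr was lost without untreated replicate 1 of 24 h (0.11, adjusted p = 0.0975), and that of Cd47 (adjusted p = 0.0471) without any 1 of 5 untreated libraries, the exception being replicate 3 of 24 h.

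Set against chemotherapy alone at 24 h, the combination was higher for Lgals9 and lower for Cd274, Cd80, Nectin2 and Pvr (53.5% of all genes were called). The log2 differences were 0.74 for Lgals9, -1.48 for Cd80, -0.74 for Pvr, -0.35 for Nectin2 and -0.22 for Cd274. The calls of Cd274 (adjusted p = 0.0432) and Nectin2 (adjusted p = 0.0163) were each lost without combination replicate 1 of 24 h (adjusted p = 0.12 and 0.0762). That of Cd274 was also lost without chemotherapy replicate 2 (-0.14, adjusted p = 0.208) or 3 or combination replicate 3, and that of Nectin2 without chemotherapy replicate 1. At 6 h Cd47, Lgals9 and Ulbp1 were higher and Pvr lower in the combination (56.0%).

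The combination against trametinib alone had 7 of the 8 genes higher at 24 h and none lower (49.3% called), and 5 higher and none lower at 6 h (18.9%). At 24 h Cd80 was 20.4-fold higher (1.90 ± 0.09), Cd274 1.94-fold (0.69 ± 0.09), Ulbp1 1.85-fold (0.67 ± 0.14) and Pvr 1.65-fold (0.69 ± 0.06). The Cd80 ratio divides by trametinib libraries at only 0.131 to 0.225 TPM, and Cd80 passed the filter through combination and chemotherapy libraries. The call of Nectin2 (0.32, adjusted p = 0.0256) was lost without trametinib replicate 1 (0.21, adjusted p = 0.159) or combination replicate 2 or 3. Trametinib against chemotherapy had 1 gene higher, Lgals9, and 6 lower at 24 h (66.6%), and Cd47 and Lgals9 higher with Cd274, Cd80 and Pvr lower at 6 h (56.5%). The call of Cd80 at 6 h (-0.30) was lost without chemotherapy replicate 3 (-0.21, adjusted p = 0.0524). These comparisons share libraries with those against untreated cells and are not separate evidence.

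The effect of the combination was compared with that obtained by adding the log2 effects of its parts, chemotherapy and trametinib. At 6 h limma called none of the 8 ligand genes as departing from the sum, and none had an unadjusted p under 0.05; 0.0954% of all genes were called. At 24 h 4 did (31.8%). Lgals9 fell short of the sum by -1.16 ± 0.07 (adjusted p = 2.34e-09), and Cd80 by -0.99 ± 0.12 (adjusted p = 5.68e-06). Pvr exceeded it by 0.53 ± 0.08 (adjusted p = 3.58e-05), its fall being smaller than the sum, and Nectin2 by 0.44 ± 0.16 (adjusted p = 0.0439).

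The shortfall of Cd80 rests on the scale: with a pseudocount of 0.1 TPM in place of 1 TPM it was -0.22 (adjusted p = 0.554), and Cd80 was at only 0.131 to 0.225 TPM in trametinib cells. The departure of Nectin2 was lost when any 1 of 7 libraries at 24 h was left out (0.33 to 0.47, adjusted p 0.059 to 0.129). Cd274, Cd276, Cd47 and Ulbp1 were within 0.13 of the sum at 24 h and did not pass.

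**Figure D4:**
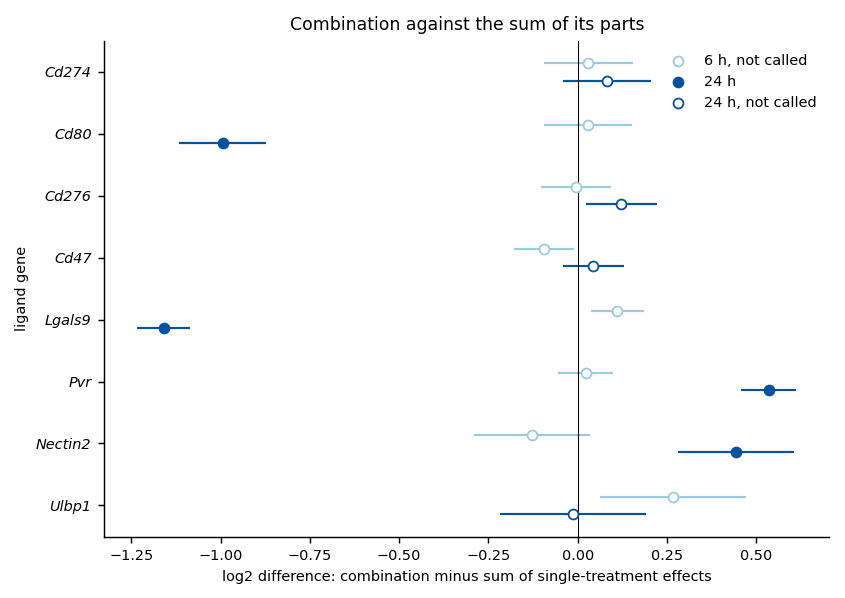
Log2 effect of the combination minus the added log2 effects of trametinib and chemotherapy for each ligand gene, with bars of 1 standard error, at 6 h (light) and 24 h (dark); filled points passed an adjusted p of 0.05. At 24 h Lgals9 (-1.16) and Cd80 (-0.99) lie under the sum and Pvr (0.53) and Nectin2 (0.44) above it.

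The size of the treatment effects changed between the times for 5 of the 8 ligand genes in chemotherapy (45.1% of all genes called), 5 in trametinib (38.2%) and 3 in the combination (49.7%). Lgals9 gained in all 3, by 0.86 in the combination, 1.15 in trametinib and 0.97 in chemotherapy. The Cd80 effect of chemotherapy grew by 2.47 ± 0.12 (adjusted p = 2.63e-11), and the Pvr effect of trametinib moved by -0.65 ± 0.08 (adjusted p = 2.89e-06).

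Of 12 other genes listed as ligands of NK receptors, 8 had a match and 5 were tested. Raet1a, Raet1b, Raet1c and H60a had no match by symbol. The list also holds the death ligand genes Tnfsf10 and Fasl, which did not pass the filter. At 24 h 4 of the 5 rose in the combination (63.4% of all genes were called), 1 in trametinib (58.7%) and 4 in chemotherapy (59.2%), and none fell in any of them; H60b is in the chemotherapy count through the filter. At 6 h 3 rose in the combination (58.4%), 2 rose and 1 fell in trametinib (54.8%), and 1, Raet1d, rose in chemotherapy (24.8%). Raet1d, which encodes an NKG2D ligand of the RAE-1 family, was at 18, 18 and 17.7 TPM in combination cells, 10.1, 8.86 and 10.6 in trametinib cells, 21.5, 21.6 and 21.4 in chemotherapy cells and 9.04, 8.59 and 7.87 in untreated cells at 24 h. Trametinib libraries overlapped untreated libraries, and combination and chemotherapy libraries stood above both.

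Raet1d rose by 0.99 in the combination (adjusted p = 5.22e-07) and 1.25 in chemotherapy (adjusted p = 3.38e-08). Its relative Raet1e rose by 0.38 and 0.67 (adjusted p = 0.000293 and 5.34e-07). Members of this family are close copies of each other, so the division of reads between them is uncertain. H60b, another NKG2D ligand gene, rose in chemotherapy at 24 h by 0.67 (adjusted p = 7.41e-05), at 1.61, 1.03 and 1.61 TPM against 0.491, 0.493 and 0.532 TPM in untreated cells, and passed the filter through those 3 libraries only.

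The list holds 2 tested genes for ligands of inhibitory NK receptors, Clec2d and H2-T23. Clec2d, the ligand of the inhibitory receptor NKR-P1B in the mouse, was at 5.61, 6.21 and 5.55 TPM in combination cells, 11.3, 11.9 and 11.1 in trametinib cells, 2.51, 1.83 and 2.08 in chemotherapy cells and 1.92, 2.20 and 2.47 in untreated cells at 24 h. Its rise was 1.09 in the combination (adjusted p = 1.58e-08) and 1.96 in trametinib (adjusted p = 4.19e-12), and it was called in chemotherapy at neither time. H2-T23, whose product Qa-1 binds the inhibitory receptor CD94-NKG2A, rose in the combination by 0.94 at 6 h and 0.57 at 24 h, in trametinib by 1.26 at 6 h, and in chemotherapy by 0.72 at 24 h. It was not called in trametinib at 24 h (0.25, adjusted p = 0.173) or in chemotherapy at 6 h (0.24, adjusted p = 0.298).

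Among 19 other costimulatory and coinhibitory ligand genes 7 were tested. At 24 h 3 rose and 2 fell in the combination (63.4% of all genes were called), 3 rose and 2 fell in trametinib (58.7%), and 1 rose and 1 fell in chemotherapy (59.2%). Cd24a is among the rises in the combination and trametinib. It reached 1 TPM in only 4 of the 24 libraries, so its part in these counts is set in part by the filter. Vsir, which encodes the inhibitory ligand VISTA, was at 7.33, 6.96 and 6.18 TPM in combination cells, 9.15, 8.99 and 9.02 in trametinib cells, 3.18, 2.85 and 3.14 in chemotherapy cells and 2.97, 2.63 and 3.18 in untreated cells at 24 h. It rose by 0.99 in the combination and 1.36 in trametinib (adjusted p = 2.64e-05 and 6.89e-07).

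Tnfsf9, which encodes the costimulatory ligand 4-1BBL, went the other way, at 2.67, 2.11 and 2.14 TPM in combination cells, 1.56, 1.22 and 1.54 in trametinib cells, 6.39, 6.68 and 5.51 in chemotherapy cells and 4.26, 4.12 and 4.31 in untreated cells at 24 h. No groups overlapped, and it fell by 0.67 on the log2 scale in the combination and by 1.10 in trametinib, and rose by 0.46 in chemotherapy. At 6 h Tnfsf9 rose in the combination (0.27, adjusted p = 0.017) and in chemotherapy (0.67) and was not called in trametinib (-0.11), so the combination had the opposite direction at the earlier time. Icosl, the ICOS ligand gene, rose at 6 h in all treatments, by 1.24 in the combination, 0.79 in trametinib and 0.63 in chemotherapy. At 24 h Icosl fell in trametinib (-0.25, adjusted p = 0.0386) and was not called in the combination (0.02) or chemotherapy (0.22, adjusted p = 0.0682), and its effect fell between the times in all 3 treatments.

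In the nectin family and its partners 5 of 7 genes were tested, of which 2 rose and 1 fell in the combination (63.4% of all genes were called), 2 rose and 2 fell in trametinib (58.7%), and 2 rose and 1 fell in chemotherapy (59.2%) at 24 h. Nectin4 had the pattern of Cd80 at a lower level, at 1.07, 0.790 and 0.930 TPM in combination cells, 0.0657, 0.0719 and 0.0857 in trametinib cells, 4.40, 4.31 and 4.63 in chemotherapy cells and 0.263, 0.164 and 0.116 in untreated cells at 24 h. It rose by 0.71 in the combination and 2.21 in chemotherapy (adjusted p = 8.71e-08 and 1.32e-14), and like Cd80 it passed the filter through these groups. Cadm1, a ligand of the NK and T cell receptor CRTAM, rose at 24 h by 1.35 in trametinib (adjusted p = 4.84e-09) and 0.43 in the combination, and fell by 0.37 in chemotherapy. At 6 h Cadm1 fell in the combination (-0.41, adjusted p = 0.00398) and in chemotherapy (-0.66) and was not called in trametinib (0.14, adjusted p = 0.329).

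Of 11 genes listed for receptors of immune cells and their signalling 4 were tested. These were Havcr2, Cd40, Cd247 and Tigit, which the nectin list also holds. Cd40 and Cd247 do not encode receptors of the 10 ligands. Tigit, the receptor of CD155 on T and NK cells, was at 7.53, 5.96 and 7.73 TPM in combination cells, 3.10, 2.67 and 3.05 in trametinib cells, 14.5, 12.7 and 12.6 in chemotherapy cells and 15.9, 16.3 and 15.4 in untreated cells at 24 h. It fell by 1.07 on the log2 scale in the combination and by 2.10 in trametinib (adjusted p = 2.32e-07 and 2.17e-11), with no overlap between any groups. Only 1 Tigit transcript was quantified, the coding Tigit-201, so its share was fixed. The T and NK cell markers summed to at most 0.705 TPM and Cd3e was at 0.

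Havcr2, the TIM-3 gene, was at 5.49, 5.36 and 4.70 TPM in combination cells, 1.08, 1.01 and 0.825 in trametinib cells, 5.42, 6.26 and 5.90 in chemotherapy cells and 1.51, 1.47 and 1.35 in untreated cells at 24 h. It rose by 1.34 in the combination and 1.49 in chemotherapy, and fell by 0.31 in trametinib (adjusted p = 3.64e-09, 1.28e-09 and 0.0233). Combination and chemotherapy libraries overlapped and stood above the other groups, and trametinib libraries were lowest. At 6 h Havcr2 fell in the combination (-0.32, adjusted p = 0.021) and in trametinib (-0.41, adjusted p = 0.00445) and was not called in chemotherapy (0.25, adjusted p = 0.118). Of the 4 genes tested, at 24 h 2 rose and 1 fell in the combination (63.4% of all genes were called), 2 fell in trametinib (58.7%) and 2 rose in chemotherapy (59.2%). The 2 that rose were Havcr2 and Cd40 in both.

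**Figure D5:**
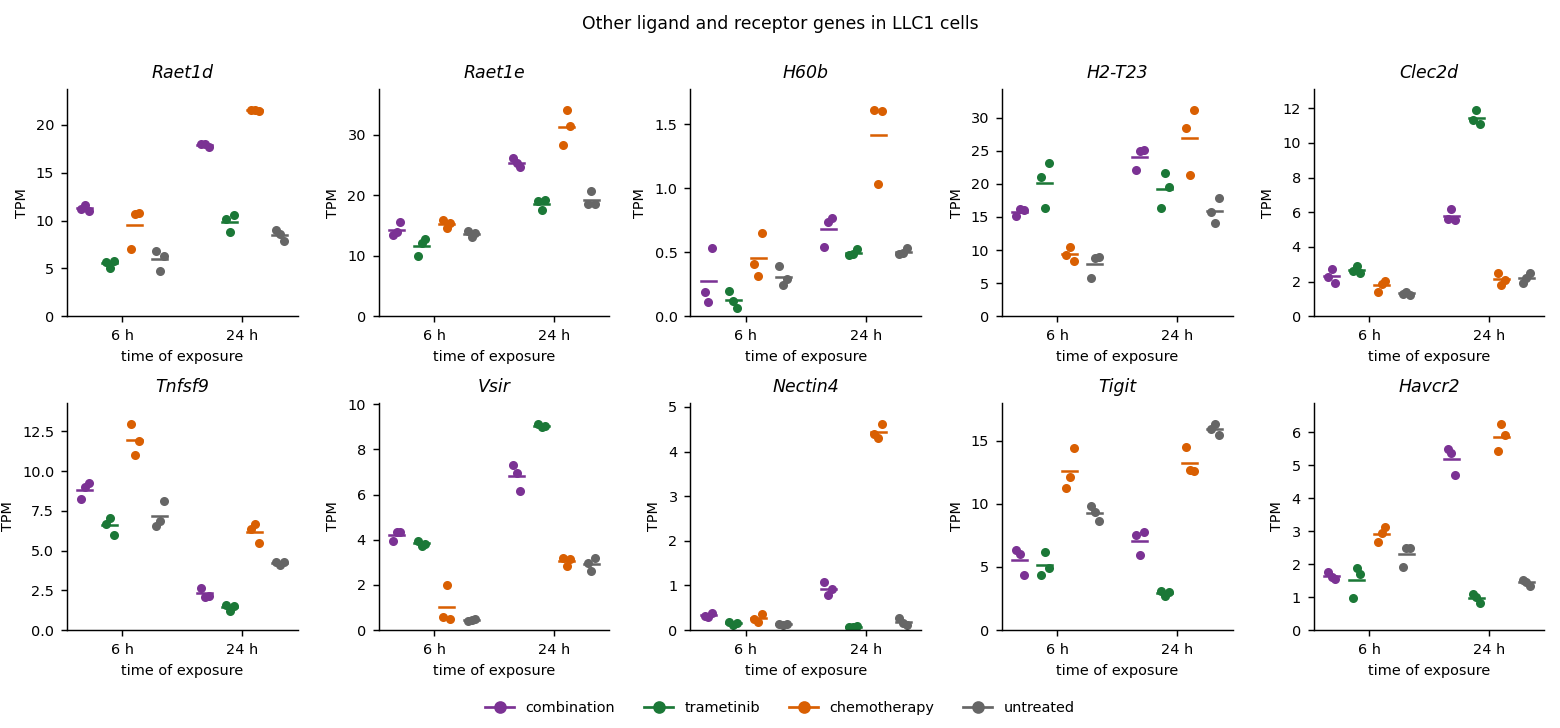
TPM in each library (points) with the group mean (line) for NK receptor ligand genes, other ligand genes and 2 receptor genes, in the order combination, trametinib, chemotherapy and untreated at each time. Raet1d and Nectin4 are highest in chemotherapy at 24 h, Clec2d and Vsir in trametinib at 24 h, and Tigit is lowest in trametinib at 24 h.

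All 17 listed regulators of PD-L1 were tested. At 24 h 10 rose and 3 fell in the combination (63.4% of all genes were called), 8 rose and 5 fell in trametinib (58.7%), and 9 rose and 3 fell in chemotherapy (59.2%). Irf1, the interferon-response transcription factor, was at 45.9, 46.9 and 41.8 TPM in combination cells, 31.5, 29.2 and 33.2 in trametinib cells, 25, 26.4 and 25.9 in chemotherapy cells and 10.4, 10.8 and 9.85 in untreated cells at 24 h. These groups were in the order of Lgals9 and not of Cd274, which trametinib lowered. A link of Irf1 with either gene was not tested. Irf1 rose by 2.02, 1.51 and 1.24 in the combination, trametinib and chemotherapy (adjusted p = 2.12e-15, 1.4e-13 and 3.03e-12).

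Cmtm6, whose product keeps PD-L1 at the cell surface, was at 16.6, 16.3 and 15.7 TPM in combination cells, 15.4, 13.7 and 14.8 in trametinib cells, 26.0, 25.4 and 24.5 in chemotherapy cells and 14.6, 14.0 and 14.7 in untreated cells at 24 h. Chemotherapy libraries stood clear of all others, with a rise of 0.77 (adjusted p = 2.22e-10). The rise of 0.16 in the combination was lost after rescaling (0.05). Jak1, a kinase of the interferon receptors, rose by 0.99 in the combination and 1.03 in trametinib (adjusted p = 2.21e-10 and 1.61e-10), against 0.01 in chemotherapy.

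Over all 24 libraries, the genes whose log2(TPM + 1) ran most like each ligand gene were the ERK-responsive growth factor gene Areg for Pvr (Pearson's r = 0.991) and Plk3 (r = 0.965), Ces2g and Mab21l3 for Cd80 (r = 0.987 and 0.983), and Ifi203 and Olfml2b for Lgals9 (both r = 0.978). Those nearest to Cd274 were Susd6 and Rhebl1 (r = 0.945 each), to Ulbp1 Paics and Zfp867 (0.967 and 0.959), to Cd47 Vps35 (0.929), and to Nectin2 Blvrb and Nthl1 (0.916 and 0.883). Cd276 had its highest r with Col26a1 (0.763). These values describe libraries that share 8 groups and are not independent points.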

How the data were processed

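The deposited table holds TPM values that the authors computed for 82934 transcripts in 24 libraries, with kallisto 0.45 after demultiplexing with bcl2fastq 2.17.1.14 and with GRCm38, per the submitters' processing notes. Each library sums to the same total, so depth is unknown. Transcripts were summed per gene with GENCODE M21, and 3272 transcripts without a match, which held 4.45% to 5.98% of each library, were dropped. The 12581 genes with 1 TPM or more in 3 or more libraries entered limma 3.58.1 (R 4.3.3) on log2(TPM + 1), with 1 mean for each of 8 groups, 16 residual degrees of freedom, variances moderated with a trend on level and 18 contrasts. A log2 difference on this scale understates changes of low genes. The steps were tested on simulated data. The study's own threshold, a Bonferroni adjusted p of 0.10, was an alternative; its count model was not used here, since TPM are not counts.

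The ligand genes and the related and marker lists were chosen with earlier results of these data known. Text names all 10 ligand genes, called list members with the smallest p in each treatment against untreated cells, list members as levels, and the most similar gene or genes by Pearson's r. Promoter sequences come from RefSeq. Alternatives covered the pseudocount, filter, scaling, replicate block, samples in the fit, variance trend, adjustment rule and each library left out. Libraries of a group correlated at 0.993 to 0.997 and none were identical.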

Additional observations from a re-analysis of the deposited data

Results flagged for a closer look

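For 6 ligand genes the effect of a treatment at 24 h differed from its effect at 6 h by a test of the difference itself (limma, all adjusted p under 0.05, log2 differences, effect at 24 h minus effect at 6 h). Of all genes, 49.7% were called in the same contrast for the combination, 38.2% for trametinib and 45.1% for chemotherapy. Lgals9 changed by 0.86 in the combination, 1.15 in trametinib and 0.97 in chemotherapy, and Cd80 by 0.84, -0.61 and 2.47 in the same order. Nectin2 changed by -0.74, -0.90 and -0.42. These Nectin2 changes include a rise in untreated cells, from a mean of 2.44 TPM at 6 h to 4.48 TPM at 24 h. Between the same times its mean went from 3.19 to 2.96 TPM in combination cells and from 2.73 to 2.18 in trametinib cells. In chemotherapy cells it went from 3.22 to 4.02 TPM. Cd47 changed by -0.29 in trametinib and 0.28 in chemotherapy, Pvr by -0.65 in trametinib and Ulbp1 by 0.51 in chemotherapy. The chemotherapy changes of Nectin2 (adjusted p = 0.0436) and Ulbp1 (adjusted p = 0.0481) were the closest to the threshold and were lost when any 1 of 9 and any 1 of 8 libraries was left out. After rescaling of the libraries the chemotherapy changes of Cd47 (0.16) and Ulbp1 (0.43) also lost their calls.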

How the results depend on the processing

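The number of called ligand genes was recounted under each alternative, for 18 comparisons. The share of all genes called was computed for the main fit only. These recounts therefore show how the calls depend on the settings, and nothing particular to the ligand genes. Requiring a mean of 5 TPM left 4 ligand genes (Cd276, Cd47, Lgals9 and Pvr), so counts fell by construction. Against untreated cells they became 3, 3 and 2 at 6 h and 3, 2 and 3 at 24 h in the combination, trametinib and chemotherapy. They became 2 for the combination against chemotherapy at 24 h, 2 and 3 against trametinib at 6 h and 24 h, 3 and 3 for trametinib against chemotherapy, 2 for the departure from the sum at 24 h, 2 and 3 for the changes of the chemotherapy and trametinib effects, and 3 for untreated cells over time. The stricter Bonferroni rule gave 3, 2 and 1 at 6 h and 4, 3 and 3 at 24 h against untreated cells, 2 and 3 for the combination against chemotherapy, 1 and 3 against trametinib, 4 for trametinib against chemotherapy at 24 h, 2 for both changes of effect, and 1 for untreated cells over time. With no filter trametinib at 6 h had 3 calls, and the change of the chemotherapy effect 3, as it also had with a pseudocount of 0.1 TPM or after rescaling. Quantile normalization gave 7 for the combination against chemotherapy at 6 h and 5 for the change of the combination effect, and the cause was not tested. The fit on compared groups alone gave 2 for the combination against trametinib at 6 h. Leaving out 1 library gave 3 to 5 calls for trametinib at 6 h (3 without untreated replicate 1 or 2 or trametinib replicate 3), 3 to 5 for the combination against chemotherapy at 24 h (3 without combination replicate 1), and 3 to 5 for the change of the chemotherapy effect (3 without chemotherapy replicate 1 or 3 or untreated replicate 2 of 6 h, or chemotherapy replicate 2 or 3 or untreated replicate 3 of 24 h). Of the single-gene values 1 reversed, that of Nectin2 in the combination at 6 h under quantile normalization (-0.0079). Replicate numbers do not pair libraries: deviations of same-numbered libraries correlated at a median of -0.04 (-0.36 to 0.44 over 84 pairs). With the replicate as a block, counts of calls stayed within 1 of those without it, and 4 calls were lost: Cd274 in the combination against chemotherapy at 24 h (adjusted p = 0.0578; 4 calls with the block), Ulbp1 in the combination against trametinib at 6 h (0.0518) and in the change of the chemotherapy effect (0.0594), and Cd47 in untreated cells over time (0.0605). Depth cannot be read from TPM, which limits what can be said of Ulbp1, Cd80, Cd86 and other low genes.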
